A study of Mus musculus with 6 samples.

Results

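The Sonic hedgehog pathway was examined through 9 genes, *Shh*, *Ptch1*, *Smo*, *Gli1*, *Gli2*, *Gli3*, *Hhip*, *Boc* and *Gas1*, which were taken by symbol from a count table of 24421 genes. All 9 were found, each on a single line, and all 9 passed the filter on low counts that left 15584 genes for testing. Heads in which neural tube and neural crest cells were heterozygous for *Snrpb* were compared with WT heads, and the fitted levels of the 9 genes in mutants were 0.867 to 1.03 times those in WT. None of the 9 passed the test across all genes (edgeR quasi-likelihood test, Benjamini-Hochberg adjusted *P* below 0.05), against a background of 0.00642% of tested genes called, which is 1 gene, nor did any with DESeq2, against a background of 0.398%. *Gas1* had the smallest adjusted *P* of the 9 (edgeR adjusted *P*=0.452), with every mutant library below every WT library. That gene was the only 1 of 9 without overlap between the groups, where 15.2% of all tested genes had none and 6.92% had mutants below WT.

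The samples were heads of mouse embryos at E9.0, with 3 WT pools and 3 mutant pools, each of 2 somite-matched heads of 1 genotype taken from different litters. *Snrpb* encodes a core protein of the spliceosome. The labels write the genotypes as SnrpB +/+ and SnrpB+/-. By the study's methods, the mutants were *Snrpb* L/+; *Wnt1-Cre2* Tg/+ embryos (*Snrpb* ncc+/-), in which Cre driven by *Wnt1* sequences deletes the exons of 1 *Snrpb* allele that lie between loxP sites. Cre acts in the neural tube and in neural crest cells, so the surface ectoderm, endoderm, head mesoderm, blood and vessels of the same heads keep both alleles. Whether the WT heads carried Cre or the floxed allele is not given in the sources used here, so the effects of Cre and of the deletion cannot be told apart. The labels name the strain as C57BL/6 and also CD1, the methods name a mix of both, and the age label sets a postnatal day beside E9.0. The embryos received no treatment.

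Reads counted per library ran from 36378803 to 58946111 in WT and from 42398206 to 74909774 in mutants. Levels are given as CPM, read counts scaled to a common library size, after TMM scaling, an adjustment for library composition. *Snrpb* itself, the targeted gene, was at 414 to 438 CPM in WT and 412 to 436.5 CPM in mutants, so the count over the whole gene did not separate the genotypes in these heads. Markers of neural tube, neural crest, surface epithelium and endoderm, blood and vessels were all detected, whereas 6 Hox genes of the trunk, which heads lack, summed to at most 0.284 CPM in any library. WT replicate 1 stood apart in several marker sums: neural tube markers summed to 501 CPM there and to 388 to 429 CPM in the other 5 libraries, visceral endoderm markers to 26.8 CPM against 5.89 to 7.44 CPM, and cardiac markers to 12.4 CPM against 32.4 to 131 CPM. The 4 Y-linked genes summed to 62.8, 98.8 and 120.0 CPM in WT and to 111, 173 and 228 CPM in mutants. Embryo sex is not given in the labels.

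Hedgehog ligands are secreted proteins that pattern the neural tube from the ventral side and shape the face through the forebrain and facial ectoderm. In the absence of ligand, the receptor PTCH1 holds the membrane protein SMO inactive, and the GLI transcription factors, GLI3 above all, are processed into repressors in a step that depends on the primary cilium. When SHH binds PTCH1 together with one of the co-receptors BOC, CDON or GAS1, SMO enters the cilium and GLI2 and GLI3 turn into activators, which raise transcription of *Gli1*, *Ptch1* and *Hhip*. The latter 3 genes are therefore widely used as a readout of pathway activity, and *Ptch1* and *Hhip* feed back as inhibitors.

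Promoter sequences of 6 members (*Ptch1*, *Smo*, *Gli2*, *Gli3*, *Hhip* and *Gas1*) were found in a RefSeq table for GRCm38.p6, each as a window of 300 bases from 250 before to 50 after the RefSeq transcription start. *Shh*, *Gli1* and *Boc* were not among the matches. The windows of *Ptch1*, which is both the receptor and a target of the pathway, and of *Gas1*, the gene whose groups did not overlap, are printed 5′ to 3′ on the strand of the gene, with each CpG in capitals. Their positions are chr13:63565686-63565985 on the minus strand for *Ptch1* and chr13:60177486-60177785 on the minus strand for *Gas1*. In Gencode M21 the *Ptch1* window lies inside the gene, downstream of its outermost start, and the *Gas1* window lies wholly upstream of the annotated start, so each window covers 1 RefSeq start and not every start of the gene.
Ptch1: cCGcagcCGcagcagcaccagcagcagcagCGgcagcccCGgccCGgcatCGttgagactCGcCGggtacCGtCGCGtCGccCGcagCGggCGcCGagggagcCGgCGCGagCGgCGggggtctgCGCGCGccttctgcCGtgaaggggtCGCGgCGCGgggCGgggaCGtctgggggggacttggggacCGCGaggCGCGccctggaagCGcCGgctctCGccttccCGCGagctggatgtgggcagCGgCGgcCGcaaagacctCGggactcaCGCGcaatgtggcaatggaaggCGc
Gas1: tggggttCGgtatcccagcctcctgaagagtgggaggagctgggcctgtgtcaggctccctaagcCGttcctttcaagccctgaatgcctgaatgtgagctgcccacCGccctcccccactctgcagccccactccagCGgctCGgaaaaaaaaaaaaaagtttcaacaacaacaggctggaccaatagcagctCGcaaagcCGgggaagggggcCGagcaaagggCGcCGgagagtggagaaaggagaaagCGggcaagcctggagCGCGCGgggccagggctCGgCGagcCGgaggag
The *Ptch1* window had 47 CpGs and a GC content of 76.3%, the highest of the 6 for both, and the *Gas1* window had 17 CpGs and a GC content of 62.3%, the lowest GC of the 6. Over all 32851 windows of the table the medians were 7 CpGs and 52.7% GC. The GLI binding motif GACCACCCA was searched on both strands (TGGGTGGTC on the other) and was in none of the 6 windows and in 0.253% of all windows. Its last 7 letters, CCACCCA, were likewise in none of the 6, and in 9.30% of all windows. These counts describe the letters in these short windows only.

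To set the members against each other, CPM were divided by the length of each gene's annotated exons (Gencode M21). This length joins the exons of all annotated transcripts, whether or not they were present in these heads. By the study's methods, counting used an earlier Gencode release. The order of the genes therefore depends on the length used. On this scale *Smo* had the highest level in WT, 55.4±3.14 CPM per kb (mean±SD, *n*=3), followed by *Gas1* at 32.3±2.14. *Gli3* at 15.5±2.82 and *Boc* at 11.7±2.15 came next, and their WT ranges overlapped. *Ptch1* was at 7.88±0.243 CPM per kb. *Shh* at 4.78±0.215, *Gli1* at 4.23±0.803 and *Gli2* at 4.18±0.969 had overlapping ranges and could not be ordered. *Hhip* was the lowest at 0.899±0.0483 CPM per kb, below every other member in every library. The order of the means was the same in mutants, from 54.1±1.48 for *Smo* to 0.838±0.153 for *Hhip*.

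**Figure D1:**
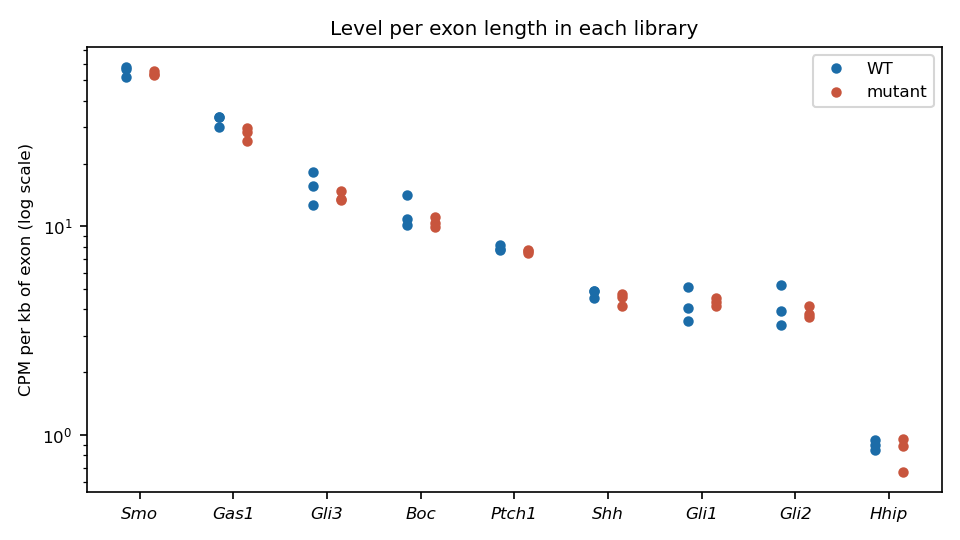
Levels of the 9 members in CPM per kb of annotated exon (log scale), 1 point per library, WT in blue and mutant in red. Levels span from 0.665 CPM per kb (*Hhip*, mutant replicate 1) to 57.8 CPM per kb (*Smo*, WT replicate 2), and the points of the genotypes lie close together within each gene.

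*Shh* encodes the ligand and lies at chr5:28456815-28467256 (minus strand; mm10). Its level was 12.9, 14.0 and 14.0 CPM in WT replicates 1 to 3 and 11.9, 13.5 and 13.0 CPM in mutant replicates 1 to 3. The groups overlapped, and the lowest library of all was mutant replicate 1. The log2 fold change of mutant against WT was -0.09±0.08 (SE), with a 95% interval of -0.26 to 0.09, that is 0.833 to 1.07 times the WT level (edgeR adjusted *P*=0.800). With 1 library left out it ran from -0.13 (without mutant replicate 2) to -0.04 (without mutant replicate 1). *Shh* was counted with 470 to 1029 reads per library. Of its annotated exons, 446 bases are shared with the antisense gene *9530036O11Rik* on the opposite strand, and reads from that stretch cannot be assigned with certainty because how strand was treated in counting is not given in the sources used here. *Shh* is made by small groups of cells such as those of the ventral midline, and its location within the head was not measured in these libraries.

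*Ptch1* (chr13:63508328-63573598, minus strand), the receptor, had the smallest spread of all members, with a coefficient of variation of 3.01% over the 6 libraries. It was at 116, 109 and 111 CPM in WT and at 109, 108 and 106 CPM in mutants. The WT library with the lowest value and the mutant library with the highest nearly coincided, so the groups overlapped. Its log2 fold change was -0.05±0.04 with a 95% interval of -0.14 to 0.04, or 0.905 to 1.03 times WT (edgeR adjusted *P*=0.757), and without WT replicate 1 it was -0.03.

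*Smo* (chr6:29735503-29761365, plus strand), the signal transducer that PTCH1 inhibits, was the deepest counted member with 10781 to 22580 reads per library. It was at 317, 325 and 291 CPM in WT and 313, 297 and 302 CPM in mutants, and all 3 mutant libraries lay inside the WT range. For *Smo* the log2 fold change was -0.03±0.05, and the 95% interval of 0.907 to 1.05 times WT was among the narrowest of the 9 (edgeR adjusted *P*=0.881).

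Co-receptors came next. *Gas1* (chr13:60174405-60177365, minus strand) encodes a membrane-anchored protein that binds SHH and promotes signalling, and it has a single exon. It was at 99.0, 88.2 and 99.4 CPM in WT and at 88.0, 76.3 and 84.2 CPM in mutants. All mutant libraries were below all WT libraries, although the highest mutant library (88.0) and the lowest WT library (88.2) almost touched. The log2 fold change was -0.21±0.07 with a 95% interval of -0.36 to -0.05, or 0.781 to 0.963 times WT. Its unadjusted *P* was 0.0133 in the edgeR quasi-likelihood test, and after adjustment over all 15584 genes it was 0.452, so the difference did not pass the threshold. With DESeq2 the unadjusted *P* was 0.00683 and the adjusted *P* 0.276. *Gas1* was the only member with an unadjusted *P* below 0.05 in either tool (1 of 9, where 8.43% of all tested genes were below 0.05 in edgeR and 5.19% in DESeq2). It was also the only 1 of 9 whose groups did not overlap, where 15.2% of all tested genes had groups that did not overlap and 6.92% had mutants below WT (8.32% had mutants above). In a fit that also held the mean Y-linked level of each library, the log2 fold change of *Gas1* was -0.09. That level ran from 3.93 to 4.88 log2 CPM in WT and from 4.78 to 5.82 log2 CPM in mutants. The Y-linked level thus partly followed genotype, and the fit cannot fully separate it from genotype. In RNA from whole heads, fewer cells that express a gene and less RNA per cell cannot be told apart. Of the *Gas1* exon, 589 bases are also annotated as exon of *Gm48488* on the opposite strand.

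*Boc* (chr16:44485049-44558897, minus strand), the other co-receptor among the members, was at 63.1, 45.0 and 48.5 CPM in WT and at 49.2, 44.3 and 46.5 CPM in mutants. WT replicate 1 stood above the other 5 libraries, which lay between 44.3 and 49.2 CPM. Its log2 fold change was -0.16±0.12 with a 95% interval of -0.46 to 0.13 (edgeR adjusted *P*=0.760). It was -0.01 without WT replicate 1 and -0.26 without WT replicate 2 (edgeR adjusted *P*=0.436).

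*Hhip* (chr8:79965851-80058006, minus strand) encodes a membrane protein that binds and sequesters hedgehog ligands and is itself a target of the pathway. It was at 7.72, 8.17 and 8.60 CPM in WT and at 6.04, 8.09 and 8.68 CPM in mutants. The mutants held both the highest and the lowest library. The log2 fold change was -0.10±0.14, with a 95% interval of -0.40 to 0.21 (edgeR adjusted *P*=0.877), and it was 0.04 without mutant replicate 1 and -0.21 without mutant replicate 3. *Hhip* had the fewest reads of the members, 255 to 615 per library.

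Among the GLI transcription factors, *Gli2* and *Gli3* had the widest intervals of all members. *Gli1* (chr10:127329882-127341974, minus strand), an activator that is transcribed in response to the signal, was at 25.5, 20.2 and 17.6 CPM in WT and at 21.7, 22.7 and 20.7 CPM in mutants. All 3 mutant libraries lay inside the WT range. It was the only member with a log2 fold change above 0, at 0.04±0.12, and its 95% interval of 0.843 to 1.26 times WT was wide (edgeR adjusted *P*=0.947). Without WT replicate 1 the log2 fold change was 0.19, and without WT replicate 3 it was -0.07. Its exons share 62 bases with *Arhgap9* and 265 with *Gm47200*, both on the opposite strand, and overlaps of this kind also touch *Gli3* (188 bases, *Gm6556*) and *Hhip* (175 bases, *Gm27820*).

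*Gli2* (chr1:118834132-119053619, minus strand), the main activator of the response, was at 36.1, 23.1 and 27.0 CPM in WT and at 26.3, 25.4 and 28.5 CPM in mutants. The WT libraries held both extremes, and its coefficient of variation over the 6 libraries was the largest of the members, 16.1%. The log2 fold change was -0.10±0.16, with a 95% interval of 0.717 to 1.22 times WT (edgeR adjusted *P*=0.893), and it was 0.09 without WT replicate 1 and -0.24 without WT replicate 2.

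*Gli3* (chr13:15463235-15730026, plus strand), the main source of the repressor form, was at 176, 122 and 149.8 CPM in WT and at 129, 130.1 and 142 CPM in mutants. As for *Gli2*, the WT libraries held both extremes and the mutants lay between them. Its log2 fold change was -0.15±0.13, with a 95% interval of 0.719 to 1.12 times WT (edgeR adjusted *P*=0.792). It was -0.02 without WT replicate 1 and -0.28 without WT replicate 2 (edgeR adjusted *P*=0.307), the highest and the lowest library, and -0.03 in the fit with the Y-linked level. RNA levels do not show how much GLI3 was processed to the repressor, which was not measured.

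**Figure D2:**
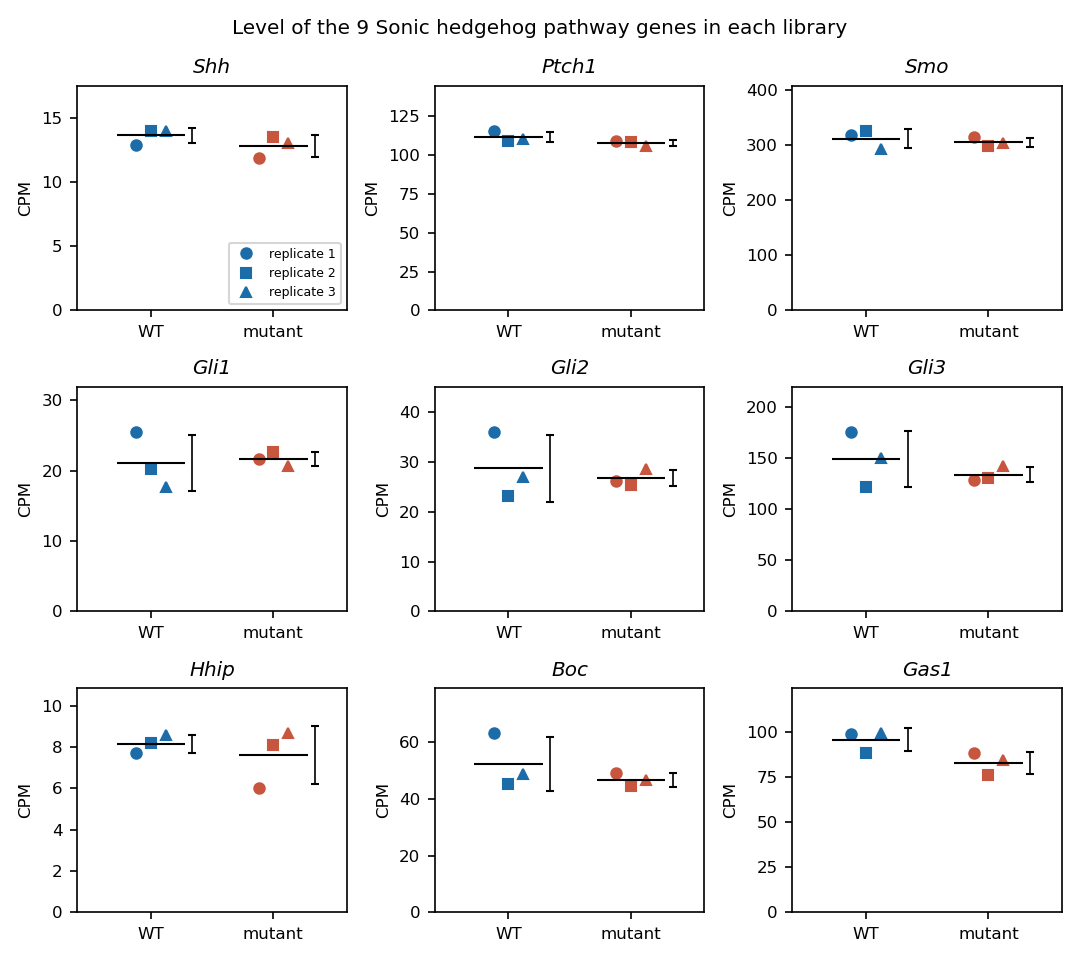
CPM of each member (vertical axes from 0) in 3 WT libraries (blue) and 3 mutant libraries (red), with the replicate number as marker shape, the mean as a horizontal line and the SD as a bar beside it. The groups overlap for 8 genes, and for *Gas1* the mutants (76.3 to 88.0 CPM) lie below the WT libraries (88.2 to 99.4 CPM).

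Over the 9 members, 8 had a log2 fold change below 0 and 1 above, with a median of -0.10, whereas 49.8% of all tested genes were below 0 and the median of all tested genes was 0.0004. The members share libraries, so their signs are not independent of each other. The median was -0.02 without WT replicate 1, and with the other 5 libraries left out in turn it ran from -0.15 to -0.06. The 3 target genes of the pathway did not move one way, with log2 fold changes of 0.04 for *Gli1*, -0.05 for *Ptch1* and -0.10 for *Hhip*, and the 95% interval of each included 0.

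**Figure D3:**
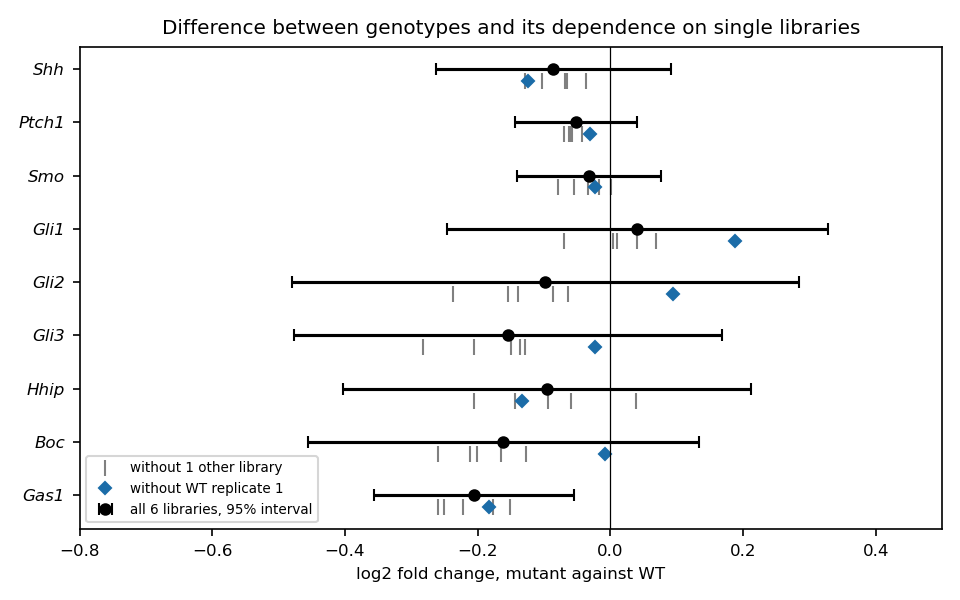
Log2 fold change of mutant against WT for each member with its 95% interval (black), and the value when WT replicate 1 (blue diamonds) or any 1 other library (grey ticks) is left out. Only the interval of *Gas1* (-0.36 to -0.05) leaves out 0, and the values of *Gli1*, *Gli2*, *Gli3* and *Boc* move most without WT replicate 1.

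WT replicate 1 held the highest value of 5 of the 9 members (*Ptch1*, *Gli1*, *Gli2*, *Gli3* and *Boc*) and the lowest of none. Averaged over the members, it lay 0.17 above the mean of the 6 libraries on the log2 scale, and each of the other 5 libraries lay between -0.07 and 0.01. The deviation of WT replicate 1 was 0.39 for *Gli2*, 0.36 for *Boc*, 0.32 for *Gli3* and 0.26 for *Gli1*, but -0.03 for *Shh* and -0.02 for *Hhip*. The same library had the highest sum of neural tube markers (501 CPM) and the lowest sum of neural crest markers (234 CPM against 269.5 to 310.4 CPM). Its sums were also the lowest for markers of pharyngeal endoderm and surface epithelium (102 against 138 to 151 CPM) and of axial mesoderm (4.92 against 6.19 to 7.70 CPM). The part of these markers in the levels of the members was not tested.

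**Figure D4:**
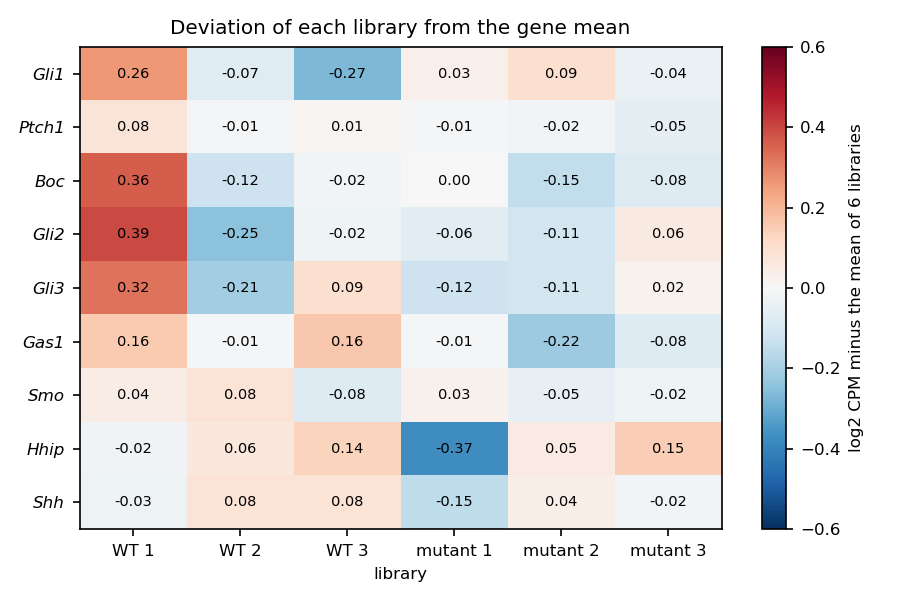
Log2 CPM of each member in each library minus the gene's mean over the 6 libraries, from blue (below) to red (above). *Gli1*, *Boc*, *Gli2* and *Gli3* are highest in WT replicate 1 (0.26 to 0.39), and *Hhip* is lowest in mutant replicate 1 (-0.37).

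Whether ligand, receptors and targets varied together between pools was examined with the 36 pairs of members over the 6 libraries. No pair passed after adjustment over the pairs (exact permutation test, two-sided, smallest adjusted *P*=0.300), and 4 pairs had an unadjusted *P* below 0.05 by Pearson's r and 1 by Spearman's rho. The closest pair was *Gli2* and *Gli3*, with r=0.947 and rho=0.886 (exact permutation *P*=0.008 and 0.033, adjusted *P*=0.300 and 0.883). Without the 2 libraries farthest from the median of *Gli2* (WT replicates 1 and 2) r was 0.654, and r of the deviations from the genotype means was 0.965. *Shh* and *Hhip* gave r=0.854 and rho=0.657 (exact permutation *P*=0.046 and 0.175, adjusted *P*=0.360 and 0.883). That relation rested on 2 libraries, since without WT replicate 3 and mutant replicate 1 r was 0.07, and r of the deviations from the genotype means was 0.850. *Shh* and *Gli1* went in opposite directions, with r=-0.466 and rho=-0.714, without passing the test (exact permutation *P*=0.343 and 0.136, adjusted *P*=0.862 and 0.883), and without WT replicate 3 and mutant replicate 1 r was -0.605, with -0.452 on deviations from the genotype means. *Shh* and *Ptch1* gave r=-0.054 and rho=-0.086 (exact permutation *P*=0.917 and 0.919, adjusted *P*=0.997 and 0.974), r was -0.330 without the same libraries, and on deviations from the genotype means it was -0.659.

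As a description, 13138 tested genes with a mean of at least 1 CPM were ranked by their correlation with *Shh* and with *Gli1* over the 6 libraries. The 5 genes most like *Shh* were *Igfbp4* (r=0.992), which encodes a binding protein of insulin-like growth factors, *Gm561* (0.988), *Rc3h2* (0.985), *9530068E07Rik* (0.979) and *Dkk3* (0.975). The 5 most like *Gli1* were *Rax* (r=0.988), a transcription factor of the eye field and hypothalamus, *Fam193b* (0.980), *Usp20* (0.979), *Ift22* (0.978), which encodes a protein of ciliary transport, and *Trappc10* (0.977). None of the other 8 members was among the closest 5 of either gene. Over 6 libraries and this many genes the ranking is a description only.

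The rest of the pathway was described with 7 lists of 82 genes, of which 81 were tested. None was called in edgeR or in DESeq2. An unadjusted *P* below 0.05 was found for 5 genes in each tool (for edgeR *Prkaca*, *Gsk3b*, *Kif3a*, *Foxd1* and *Dbx1*, all with a lower mean in mutants). Of all tested genes, 8.43% were below 0.05 in edgeR and 5.19% in DESeq2. In DESeq2, *Scube3* (unadjusted *P*=0.032) took the place of *Foxd1* (unadjusted *P*=0.059). Of the 81 genes, 61 had a log2 fold change below 0 and 20 above, with a median of -0.05, where 49.8% of all tested genes were below 0. Like the members, the 81 genes share libraries, so their signs are not independent of each other. Without WT replicate 1 the median was -0.035 and 56 genes were below 0, and in the fit with the Y-linked level these were -0.038 and 53. The groups did not overlap for 8 of them, 7 with mutants below WT and 1 above, where 15.2% of all tested genes had groups that did not overlap and 6.92% had mutants below WT.

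Among 7 genes for other ligands and for ligand release, 5 had a log2 fold change below 0 (median -0.07). The most abundant, *Scube1*, which encodes a secreted protein of a family that helps to release lipid-bearing ligand, was at 124.9, 82.9 and 93.8 CPM in WT and 91.5, 99.4 and 96.6 CPM in mutants, so WT replicate 1 was again the highest. Of 5 further receptors and co-receptors, 4 were below 0 (median -0.05). The most abundant of them was *Gpc3*, which encodes a glypican that competes with PTCH1 for ligand, at 283, 352 and 330.3 CPM in WT and 321, 342 and 338 CPM in mutants.

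Of 18 cytoplasmic transducers, 12 were below 0 and the median was -0.02. *Prkaca*, the catalytic subunit of protein kinase A, which phosphorylates the GLI proteins ahead of their processing, was at 89.9, 77.0 and 83.9 CPM in WT and at 77.2, 69.9 and 72.0 CPM in mutants. Mutant replicate 1 lay just above WT replicate 2, so the groups overlapped, and the log2 fold change was -0.19±0.06 (edgeR adjusted *P*=0.455). *Gsk3b*, a kinase that acts on the same proteins, was at 109, 92.6 and 107 CPM in WT and 88.8, 87.7 and 97.2 CPM in mutants (log2 fold change -0.17, edgeR adjusted *P*=0.550). *Gnas*, the stimulatory G protein subunit upstream of protein kinase A, was the most abundant of the list, with a log2 fold change of -0.02.

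Of 24 genes of ciliary transport and the transition zone, 17 were below 0, with a median of -0.06. *Kif3a*, a motor subunit needed to build cilia, was at 42.3, 42.1 and 44.2 CPM in WT and at 38.3, 40.4 and 38.6 CPM in mutants. Its groups did not overlap, with a log2 fold change of -0.13±0.05 (edgeR adjusted *P*=0.501). The most abundant gene of the list, *Dync2h1*, the motor of return transport in cilia, had a log2 fold change of -0.14±0.16.

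Of 10 genes listed as responding to the pathway outside the neural tube, 8 were below 0 (median -0.08). The list name does not give their tissue of expression in these heads, neural tube included, which was not measured. *Foxd1*, a forkhead transcription factor, was at 23.8, 25.2 and 25.6 CPM in WT and at 22.6, 23.0 and 22.5 CPM in mutants, without overlap (log2 fold change -0.13±0.05, edgeR adjusted *P*=0.551). *Ccnd2*, a cyclin and the most abundant of the list, had a log2 fold change of -0.04±0.07.

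Of 11 tested ventral neural tube genes, some of which depend on SHH from the midline, 9 were below 0, with a median of -0.13. None had an unadjusted *P* below 0.05 in edgeR or DESeq2. Their summed level was 157, 141 and 154 CPM in WT and 156, 134 and 139 CPM in mutants, so the groups overlapped. *Ntn1*, a guidance cue of the floor plate and the most abundant of them, was at 90.5, 80.3 and 90.8 CPM in WT and 92.5, 77.2 and 80.5 CPM in mutants. The 6 dorsal and intermediate neural tube genes were all below 0, with a median of -0.18. *Dbx1*, a homeobox gene of intermediate progenitors, was at 7.50, 5.52 and 6.51 CPM in WT and at 4.59, 4.71 and 5.21 CPM in mutants, without overlap. Its log2 fold change was -0.42±0.13, with a 95% interval of -0.72 to -0.12 (edgeR adjusted *P*=0.437). *Pax6*, the most abundant of this list, had a log2 fold change of -0.01±0.08. Beside these lists, all 6 neural tube markers had log2 fold changes below 0 (median -0.11). Of 6 neural crest markers, 5 were above 0, and no marker of either list was called. Markers of axial mesoderm (3 of 3, median 0.07) and of pharyngeal endoderm and surface epithelium (5 of 6, median 0.11) were also mostly above 0. So were cardiac markers (5 of 5), while those of blood (5 of 5), visceral endoderm (5 of 5) and vessels (4 of 5) were below 0. None of these was called. WT replicate 1 held the highest neural tube sum (501 CPM, other WT 397 and 414, mutants 429, 394 and 388 CPM). It also held the lowest neural crest sum (234 CPM, other WT 277 and 310, mutants 285, 270 and 297 CPM). The part of these markers in the lower values of neural tube genes was not tested.

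**Figure D5:**
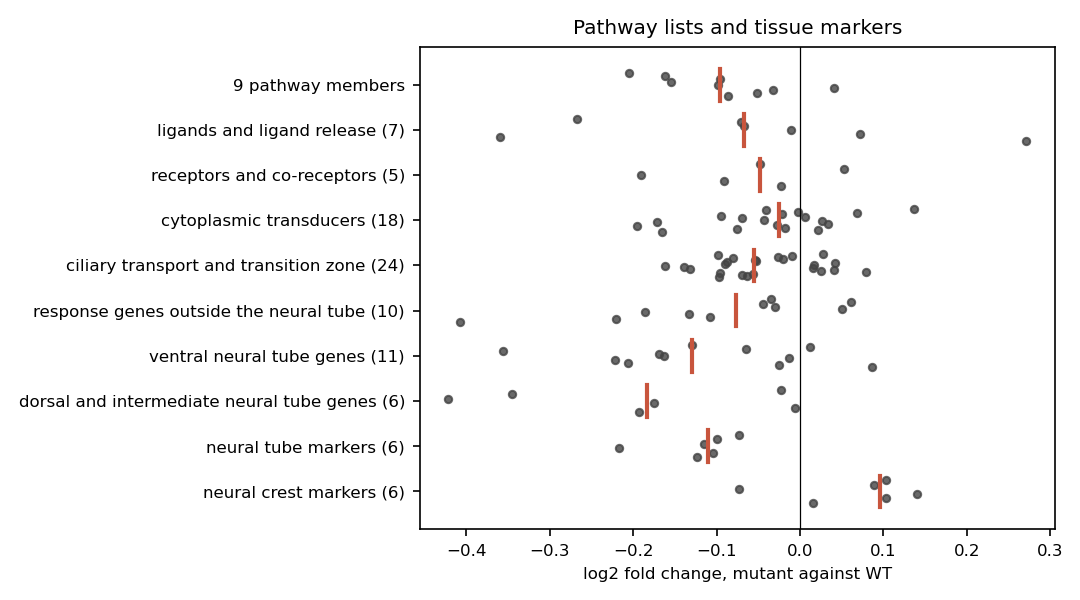
Log2 fold change of mutant against WT for each tested gene (points) of the 9 members, of 7 other pathway lists and of neural tube and neural crest markers, with the median of each list as a red bar and the number of tested genes in brackets. Among the lists shown, all medians but that of the neural crest markers (0.10) lie below 0, between -0.18 and -0.02. Markers of other tissues are not shown.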

How the data were processed

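By the study's methods, rRNA-depleted libraries (TruSeq Stranded Total RNA) were sequenced as paired reads on a NovaSeq instrument. The authors deposited 1 table of raw counts per gene symbol, whole numbers without normalization. For trimming and counting, the methods name CutAdapt and HTSeq and the submitters' processing notes name Trim Galore and featureCounts; both name STAR and mm10. All 6 count columns were used and grouped by genotype from the labels.

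The main test of the counts was the robust quasi-likelihood test of edgeR (version 4.0.16, in R version 4.3.3) after filterByExpr by genotype and TMM normalization, two-sided and without covariates, with Benjamini-Hochberg adjustment over 15584 genes, threshold 0.05. DESeq2 (version 1.42.0), the study's tool, was an alternative on 21083 genes with a count. Log2 CPM used a prior count of 2. The 95% intervals are the log2 fold change ± t × SE. The test was checked on simulated counts. Over all tested genes the median SE was 0.09 and the common biological coefficient of variation 0.087. SEs hold counting error and the spread between pools together, and the SE was 0.33 for *Dhh*, with 6 to 16 reads. The edgeR and DESeq2 *P*-values weigh the difference between genotypes against the spread between pools and counting error. Exon lengths, coordinates and overlaps come from Gencode M21 on mm10, matched by symbol. Correlations used SciPy (version 1.17.1), figures matplotlib (version 3.10.9).

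The members and lists were chosen with earlier results of these data known, and no list is independent evidence. Named were the members, in each other list the genes called or else up to 4 with the smallest unadjusted *P* below 0.05 plus the most abundant gene, and the 5 genes most like *Shh* and *Gli1*. Alternatives were another tool, 2 other normalizations, 2 other filters, a replicate block, a Y-linked covariate and leaving out each library.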

Additional observations from a re-analysis of the deposited data

How the results depend on the processing

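No member and no other pathway gene was called in any of the 13 alternatives, and no pair of members passed under any alternative for the correlations. The median log2 fold change of the members was -0.10 to -0.08 in the 7 alternatives with all libraries and -0.15 to -0.02 with 1 library left out. Of 273 values of 21 named genes, 257 kept their direction and their side of the threshold and 16 changed sign, all of them of genes that were not called; the cause was not tested. With library size in place of TMM, *Pax6* was at 0.0054. With the Y-linked covariate, which partly followed genotype, *Gli1* was at -0.14, *Hhip* at 0.012, *Dync2h1* at 0.099 and *Ntn1* at 0.0085. In that edgeR fit no gene of the table was called, and 517 had an unadjusted *P* below 0.05. With 1 library left out, the ranges were -0.078 to 0.00028 for *Smo*, -0.070 to 0.19 for *Gli1*, -0.24 to 0.094 for *Gli2*, -0.21 to 0.038 for *Hhip*, -0.19 to 0.11 for *Scube1*, -0.035 to 0.12 for *Gpc3*, -0.040 to 0.0063 for *Gnas*, -0.090 to 0.033 for *Ccnd2* and -0.087 to 0.037 for *Pax6*. *Gas1* ran from -0.26 to -0.09 over all alternatives, with an unadjusted *P* below 0.05 in 10 of 13 and an edgeR or DESeq2 adjusted *P* of 0.276 to 0.999. Over all genes, edgeR called 1 gene and DESeq2 84, edgeR without a filter 11, and leaving out a library gave 0 to 6.

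The deviations of same-numbered WT and mutant libraries from their genotype means had correlations of 0.169, 0.0317 and 0.360. Those of differently numbered libraries ran from -0.245 to 0.0875. With 3 libraries a group, these values cannot decide whether the numbers pair the samples. With the replicate number as a block, 0 members and 0 other pathway genes were called, 1 gene was called in all, the median of the members was -0.09 and the smallest edgeR adjusted *P* of a member was 0.299. With 3 pools a group, differences smaller than the intervals given above were not detectable.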
